A study of Mus musculus with 16 samples.

Results

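The urea cycle and periportal nitrogen genes are 10 genes taken by symbol: Nags, Cps1, Otc, Ass1, Asl, Arg1, Slc25a13, Slc25a15, Gls2 and Hal. Each symbol stood on 1 of the 55487 rows of the deposited tables, and 10 of 10 were among the 13905 genes tested. They were followed in 16 libraries of liver RNA from mice kept on a high-fat diet: 6 Flpo libraries, which the series text names for the 7b spliceoform of the JNK kinases, 5 Cre libraries, named for 7a, and 5 GFP control libraries. Every library, GFP included, carries the label J1 J2 lf/lf for genotype, C57/Bl6J for strain and liver for tissue, and the mice are described as hepatocyte-specific; age, and how Flpo, Cre and GFP were delivered, are not given in the labels. The labels do not say that each library is a separate mouse, so p-values here measure the spread between libraries, which may be technical. Because the numbers in the titles follow the groups, any batch that follows these numbers cannot be told apart from the group. The labels do not say what the numbers stand for.

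The urea cycle turns ammonia and aspartate nitrogen into urea, and the liver is the organ that runs it in full. Its enzymes are most abundant in hepatocytes near the portal vein, where nitrogen-rich blood enters the lobule, while glutamine synthetase, encoded by Glul, captures remaining ammonia around the central vein. Carbamoyl phosphate is made and turned into citrulline in mitochondria by the products of Nags, Cps1 and Otc, and the cycle is completed in the cytosol by those of Ass1, Asl and Arg1. Glucagon, glucocorticoids and protein intake are known to raise the messages of cycle enzymes.

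The libraries held 27929393 to 36043322 rounded estimated counts, the fewest in Cre replicate 5, and all 10 genes were well above the low-count limit in every library. Hepatocyte markers summed to 68246 to 81666 TPM in Flpo, 65748 to 93465 in Cre and 72951 to 84411 in GFP libraries. The targeted kinase genes Mapk8 and Mapk9 were measured as whole genes and passed edgeR's quasi-likelihood test in none of the 3 comparisons. Mapk9 in Flpo against Cre had a log2 fold change of 0.48 (adjusted p = 0.0784) and passed in 7 of 29 other settings, and it passed in 1 of 29 in Cre against GFP. Cre replicates 1 and 5 stood apart from the other libraries. They were the 2 highest of 16 for 598 of 13905 genes (4.3%), more genes than any other pair of libraries, and for 6 of these 10 genes. For 1 of the 6, Nags, the lower of the pair exceeded the next library only 1.08-fold. Calls and fold changes that rest on them are given with and without them.

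Promoters of 6 of the 10 genes are in the RefSeq table of GRCm38.p6, each as 250 bases before and 50 after a start. Those of 5 are shown because they split the genes by behaviour in the 2 Cre libraries that stood apart: Nags, Ass1 and Slc25a15 were highest in both, Hal was highest in Cre replicate 1 alone, and Otc was lowest of all 16 in Cre replicate 5. For Nags the margin was small. The lower of the 2 libraries exceeded the next one 1.08-fold, against 1.33-fold for Ass1 and 1.40-fold for Slc25a15. Capitals mark matches to the motifs searched, and Slc25a15 is shown for 1 of its 2 listed starts.
Nags, chr11:102145263-102145562, plus strand: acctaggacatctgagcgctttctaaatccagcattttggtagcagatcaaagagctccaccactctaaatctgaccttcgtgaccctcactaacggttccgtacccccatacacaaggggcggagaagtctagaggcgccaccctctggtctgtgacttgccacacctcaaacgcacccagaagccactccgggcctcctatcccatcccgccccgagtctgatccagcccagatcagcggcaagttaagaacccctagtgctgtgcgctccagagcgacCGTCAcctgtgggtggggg
Ass1, chr2:31470020-31470319, plus strand: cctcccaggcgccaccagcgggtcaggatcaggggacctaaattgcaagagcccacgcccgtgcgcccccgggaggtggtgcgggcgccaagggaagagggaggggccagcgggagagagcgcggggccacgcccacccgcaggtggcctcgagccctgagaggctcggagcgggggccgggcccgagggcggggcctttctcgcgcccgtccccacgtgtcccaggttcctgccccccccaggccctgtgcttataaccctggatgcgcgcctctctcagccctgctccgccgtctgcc
Slc25a15, chr8:22398572-22398871, minus strand: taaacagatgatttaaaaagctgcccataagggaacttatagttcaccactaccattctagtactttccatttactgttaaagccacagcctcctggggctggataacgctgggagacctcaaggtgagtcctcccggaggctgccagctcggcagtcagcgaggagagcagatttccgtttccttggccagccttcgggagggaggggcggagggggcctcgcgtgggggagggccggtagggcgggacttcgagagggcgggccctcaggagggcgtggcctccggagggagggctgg
Otc, chrX:10252055-10252354, plus strand: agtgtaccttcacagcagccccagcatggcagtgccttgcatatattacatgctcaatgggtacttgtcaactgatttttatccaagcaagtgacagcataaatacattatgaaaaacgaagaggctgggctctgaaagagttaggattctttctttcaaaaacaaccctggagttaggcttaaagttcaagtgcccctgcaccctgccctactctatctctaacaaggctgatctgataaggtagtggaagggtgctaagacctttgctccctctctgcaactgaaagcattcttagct
Hal, chr10:93488518-93488817, plus strand: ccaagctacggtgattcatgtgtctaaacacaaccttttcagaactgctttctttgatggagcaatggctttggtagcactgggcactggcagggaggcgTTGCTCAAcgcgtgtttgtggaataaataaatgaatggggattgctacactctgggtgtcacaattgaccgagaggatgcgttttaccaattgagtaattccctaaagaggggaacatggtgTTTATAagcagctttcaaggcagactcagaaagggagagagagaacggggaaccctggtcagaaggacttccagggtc
The motifs were searched on both strands in these promoters and in all 32851 of the table. They were the full cAMP response element TGACGTCA (in 1.79% of all promoters), its short form TGACG (20.8%), the AP-1 site TGACTCA (5.2%), the C/EBP site TTGCNNAA (10.8%), the forkhead site TGTTTAC (3.65%), the HNF4 site CAAAGTCCA (0.475%) and the TATA box TATAAA (13.6%). TGACG lies inside TGACGTCA, so a full site also counts as a short one. The windows of Ass1, Otc and Slc25a15 held none of these letters. The Nags window held TGACG on the opposite strand, first base 32 bases after the start. Hal held TTGCTCAA at -150 and a TATA box on the opposite strand at -28. Slc25a13, not shown, held TGAGTCA, the AP-1 site read on the opposite strand, at -130 and TGACG at -13. GC content was 57.7% for Nags, 74.0% for Ass1, 60.7% for Slc25a15, 44.3% for Otc, 47.7% for Hal and 65.0% for Slc25a13.

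No gene of the group passed the test in any comparison. The Benjamini-Hochberg adjusted p under 0.05 of edgeR's quasi-likelihood test, over all genes, called 0 of 10 in Cre against GFP, where it called 9.55% of all genes tested; 0 of 10 in Flpo against GFP, where it called 0.0288%; and 0 of 10 in Flpo against Cre, where it called 13.7%. At an unadjusted p under 0.05 the counts were 3, 1 and 1, against 24.3%, 9.73% and 27% of all genes. DESeq2 called 1 of 10 in Cre against GFP, Cps1 (adjusted p = 0.0397), where it called 13.3% of all genes, and 0 in the others. Limma-voom called 0 in each. The fitted log2 fold change was above 0 for 9 of 10 genes in Cre against GFP with a median of 0.30, and for 8 of 10 in Flpo against GFP with a median of 0.15. In Flpo against Cre it was above 0 for 1 of 10, with a median of -0.26. The medians over all genes were 0.0014, -0.0055 and -0.005. The 3 comparisons share libraries, so they are not separate evidence.

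**Figure D1:**
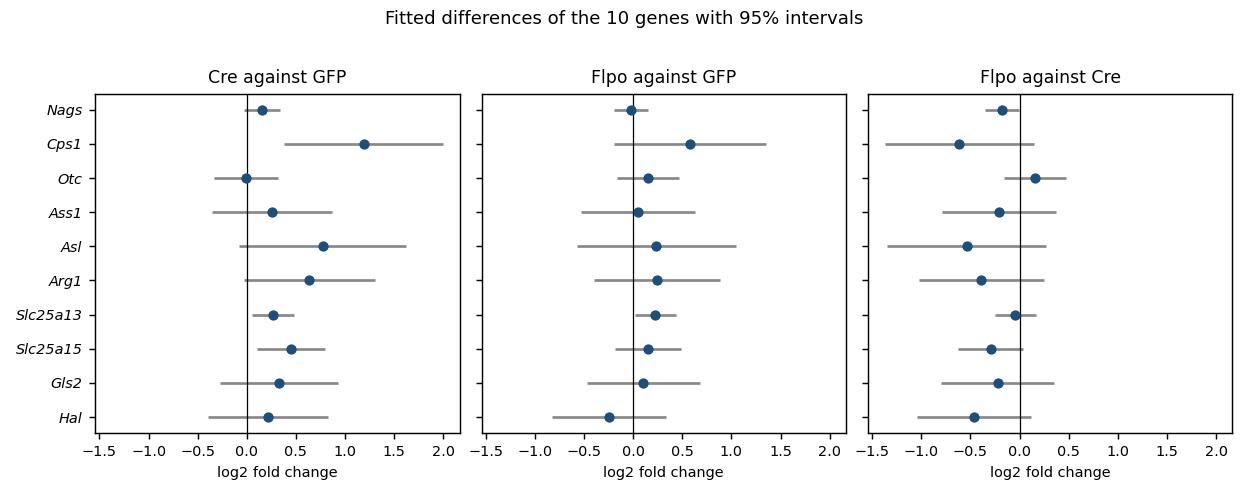
Fitted log2 fold changes of the 10 genes (points) with 95% intervals (bars) from edgeR's quasi-likelihood fit, in Cre against GFP, Flpo against GFP and Flpo against Cre. The interval of Cps1 in Cre against GFP runs from 0.38 to 2.0 and that of Asl from -0.08 to 1.62.

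In abundance per length, Ass1 led with a median of 1321 TPM over the 16 libraries, then came Arg1 at 926, Cps1 at 424, Asl at 379 and Otc at 175. Slc25a13 (118), Gls2 (116), Hal (99.2), Slc25a15 (83.8) and Nags (44.8) followed. Some neighbours in that order were close: Cps1 exceeded Asl in 12 of 16 libraries, Slc25a13 exceeded Gls2 in 10 and Gls2 exceeded Hal in 8, so these pairs are not ordered beyond their spread. Ass1 exceeded Arg1 in 15 of 16, and Arg1 exceeded Cps1 in 16. The 10 genes together took 0.374% to 0.484% of all TPM in Flpo libraries, 0.22% to 0.751% in Cre and 0.299% to 0.425% in GFP. The 2 highest shares were Cre replicates 1 and 5, at 0.670% and 0.751%, and the lowest was Cre replicate 2.

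The mitochondrial entry to the cycle starts with Nags, which makes N-acetylglutamate, the required activator of Cps1. Nags was at 57.6 to 71.4 CPM (counts scaled to library size and composition with TMM factors) in Flpo, median 67.0, at 84.7, 67.5, 69.3, 68.5 and 78.1 in Cre replicates 1 to 5 and at 61.8, 63.1, 72.4, 62.8 and 70.1 in GFP replicates 1 to 5. It was the steadiest of the 10 genes within Cre, with a standard deviation (SD) of log2 CPM of 0.14, and its groups overlapped. Its log2 fold change in Flpo against Cre was -0.17 with a standard error (SE) of 0.08 (edgeR adjusted p = 0.182).

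Cps1, carbamoyl phosphate synthetase, the rate-limiting first enzyme, was at 1881 to 2614 CPM in Flpo, median 2091, at 4168, 1134, 1812, 1899 and 7495 in Cre and at 1531, 1229, 1442, 1075 and 1963 in GFP. Cre replicates 1 and 5 lay above every other library, Cre replicate 2 lay below 4 of the 5 GFP libraries, and the Cre and GFP ranges overlapped. The fitted log2 fold change in Cre against GFP was 1.19 with an SE of 0.38 (95% interval 0.38 to 2.0, edgeR adjusted p = 0.0623). Without Cre replicates 1 and 5 it was 0.16 (adjusted p = 0.678). Without Cre replicate 2, 3 or 4 it passed (adjusted p = 0.0163, 0.044 and 0.0426), in fits where 7.43%, 7.51% and 10.3% of all genes did. In Flpo against GFP it was 0.58 with an SE of 0.36 (adjusted p = 0.636); 5 of 6 Flpo libraries lay above the highest GFP library.

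Otc, ornithine transcarbamylase, which joins carbamoyl phosphate to ornithine, did not share this shape. It was at 282 to 412 CPM in Flpo, median 319.8, at 329, 286, 369.8, 298 and 208 in Cre and at 302, 253, 322, 232 and 392 in GFP. Cre replicate 5, which held the most Cps1 of all 16 libraries, held the least Otc. The fitted difference in Cre against GFP was -0.01 on the log2 scale with an SE of 0.16 (95% interval -0.33 to 0.32, edgeR adjusted p = 0.983).

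**Figure D2:**
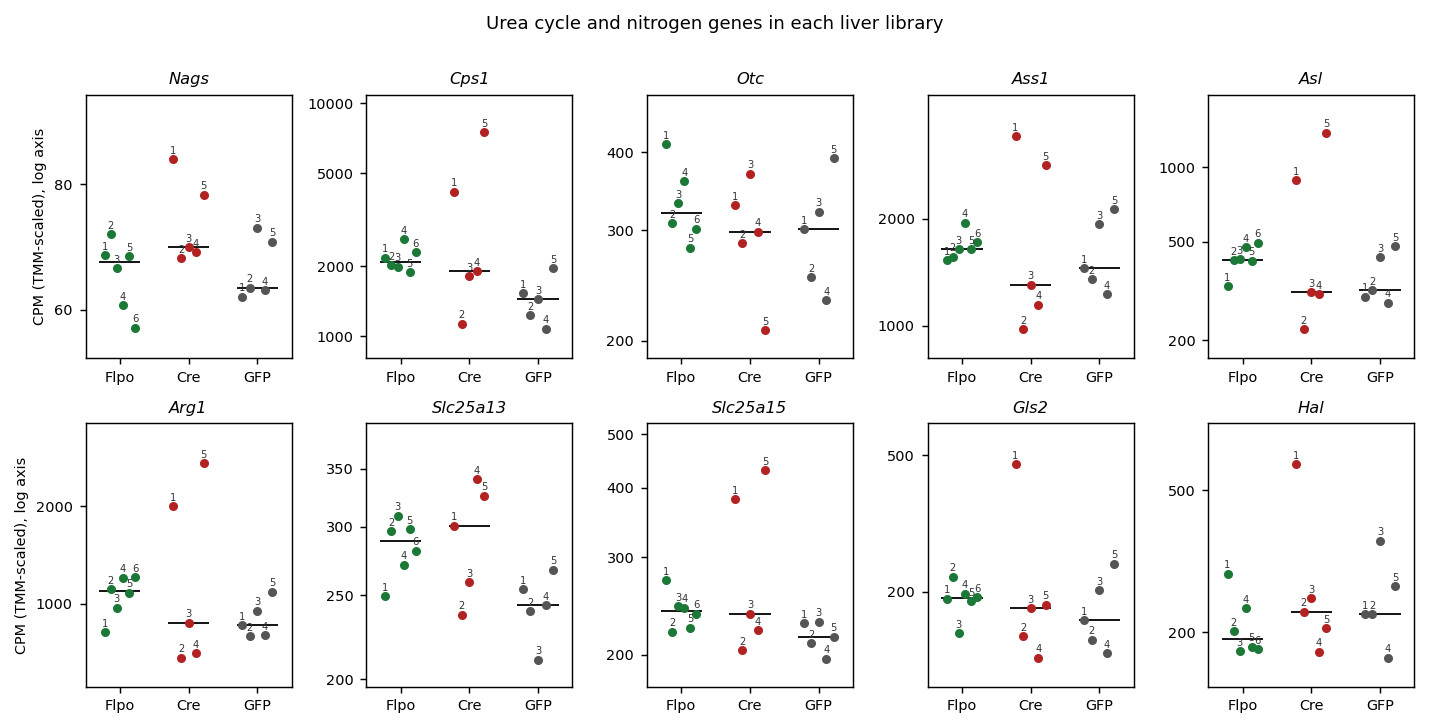
CPM of each of the 10 genes in each library on a log axis, with Flpo, Cre and GFP side by side, replicate numbers beside the points and a line at each group's median. For Cps1, Cre replicates 1 and 5 sit at 4168 and 7495, above all others, while for Otc Cre replicate 5 sits lowest at 208.

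In the cytosol, Ass1, argininosuccinate synthetase, which adds aspartate nitrogen, was at 1530.0 to 1951 CPM in Flpo, median 1645, at 3427, 978, 1306, 1148 and 2834 in Cre and at 1454, 1354, 1935, 1227 and 2130.0 in GFP. Within Cre the values ran 3.51-fold between lowest and highest. The fitted log2 fold change in Cre against GFP was 0.26 with an SE of 0.29 (edgeR adjusted p = 0.633) and was -0.50 without Cre replicates 1 and 5 (adjusted p = 0.0814).

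Asl, argininosuccinate lyase, which releases arginine and fumarate, was at 332 to 496 CPM in Flpo, median 424, at 889, 223, 313, 308 and 1379 in Cre and at 301, 319.8, 434, 284 and 481 in GFP. Cre held both the 2 highest libraries and the lowest one. Arg1, arginase, which splits arginine into urea and ornithine, was at 816 to 1211 CPM in Flpo, median 1095, at 2004, 682, 874, 703 and 2717 in Cre and at 859, 793, 953, 801 and 1090.3 in GFP. It followed the same layout, with Cre replicates 2 and 4 below every GFP library. Log2 fold changes in Cre against GFP were 0.77 (SE 0.40) for Asl and 0.63 (SE 0.32) for Arg1, with edgeR adjusted p of 0.255 and 0.231, and were -0.37 and -0.25 without the 2 libraries.

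Slc25a15, the carrier that exchanges ornithine and citrulline across the mitochondrial membrane, was at 220.1 to 273 CPM in Flpo, median 240.1, at 382, 204, 237, 222 and 430.4 in Cre and at 228, 209.8, 229, 197 and 216 in GFP. Its 2 highest libraries were again Cre replicates 1 and 5. The log2 fold change in Cre against GFP was 0.45 with an SE of 0.17 (edgeR adjusted p = 0.0999). It passed without Cre replicate 2 or 4 (adjusted p = 0.0382 and 0.0475) and was 0.04 without Cre replicates 1 and 5.

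Slc25a13, citrin, exports aspartate from mitochondria for Ass1. It was at 249 to 309 CPM in Flpo, median 289, at 301, 238, 259, 340.3 and 326 in Cre and at 254, 239.7, 211, 244 and 268 in GFP. The groups overlapped in every comparison, but here Cre replicate 4 was the highest library. Log2 fold changes were 0.27 (SE 0.10, edgeR adjusted p = 0.11) in Cre against GFP and 0.23 (SE 0.10, adjusted p = 0.471) in Flpo against GFP, and the Cre against GFP difference passed only without Cre replicate 2 (adjusted p = 0.0472) among the settings run.

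Gls2, liver glutaminase, and Hal, histidine ammonia-lyase, release ammonia from glutamine and histidine. Gls2 was at 152 to 222 CPM in Flpo, median 192, at 471, 149, 179, 129 and 183 in Cre and at 165, 145, 202, 132 and 241 in GFP. Hal was at 177 to 292 CPM in Flpo, median 192, at 592, 229, 249.7, 176 and 205 in Cre and at 224, 225, 361, 169.6 and 269 in GFP. Both were far above the rest in Cre replicate 1 and within the range of the other libraries in Cre replicate 5. Log2 fold changes in Cre against GFP were 0.33 (SE 0.28) and 0.22 (SE 0.29), and without Cre replicate 1 they were -0.14 and -0.21.

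Measured against the GFP median, Cre replicate 5 held 5.20-fold Cps1, 4.31-fold Asl, 3.16-fold Arg1, 2.0-fold Slc25a15 and 1.95-fold Ass1. Cre replicate 1 held 2.89-fold Cps1, 2.85-fold Gls2, 2.78-fold Asl, 2.63-fold Hal, 2.36-fold Ass1 and 2.33-fold Arg1. Otc stood at 1.09-fold in Cre replicate 1 and 0.689-fold in Cre replicate 5. The SD of log2 CPM within Cre was 1.13 for Asl, 1.08 for Cps1, 0.92 for Arg1 and 0.82 for Ass1, against a median of 0.31 over all genes; 4.36%, 5.04%, 7.87% and 10.5% of genes had a larger one.

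**Figure D3:**
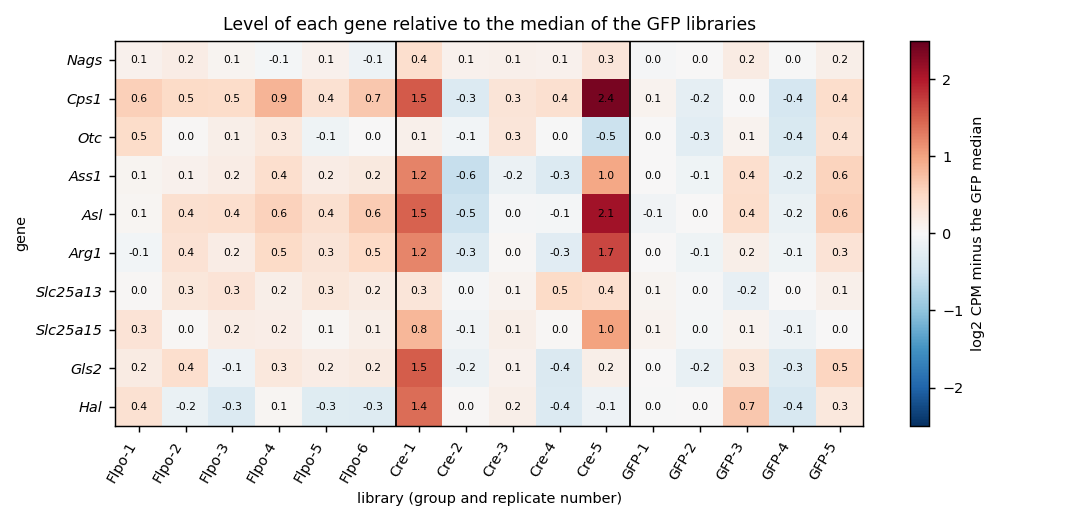
Log2 CPM of the 10 genes minus each gene's GFP median, with libraries in columns from Flpo through Cre to GFP and genes in rows. Cre replicates 1 and 5 are the strongest columns, up to 2.38 for Cps1 in Cre replicate 5, and Otc in that library is at -0.54.

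Some other markers of periportal hepatocytes were highest in the same libraries, and others were not. With the 10 genes left out, 20 periportal markers were summed, Sds and Tat of amino acid breakdown among them. They came to 7774 to 10917 TPM in Flpo, 6191 to 12996 in Cre and 7833 to 9112 in GFP. None of them was at 0, and Cre replicates 1 and 5 stood at 10355 and 12996. One Flpo library, at 10917, lay above Cre replicate 1. Cre replicates 1 and 5 were the 2 highest for 7 of the 20 markers, among them the gluconeogenic genes Pck1, G6pc and Fbp1. For Pck1 the lower of the pair was at 3767 CPM, against 3142 in the next library, Cre replicate 3. The margin was small for G6pc, at 278 CPM against 265 in Cre replicate 3. Fbp1 hardly separated the pair, at 979.95 CPM against 979.09 in Flpo replicate 5. Pigr, the receptor that carries antibodies into bile, was lowest of the Cre libraries in Cre replicate 5 at 783 CPM. Cre replicates 1 and 5 were the 2 highest for 0 of 20 pericentral markers, near the share of 4.3% over all genes. Those markers summed to 11144 to 13493 TPM in Flpo, 6477 to 13153 in Cre and 10091 to 12449 in GFP. In Cre against GFP 1 of the 20 rose, Axin2, and 1 fell, Slc22a3, where 3.97% and 5.58% of all genes did. An unadjusted p under 0.05 was reached by 9 of the 20 and by 24.3% of all genes. In Flpo against Cre 5 of the 20 pericentral markers rose, Glul, Rhbg, Cyp7a1, Slc22a3 and Cyp2c29, and 2 fell, Axin2 and Tbx3. Of all genes 7.45% rose and 6.26% fell there, and none of these marker calls held in all 29 settings run. In bulk liver, fewer cells of a type and less RNA per cell cannot be told apart, and the part of zonation in these results was not tested. Of the 20 periportal markers, 3 rose and 0 fell in Cre against GFP, where 3.97% and 5.58% of all genes did, and 7 had an unadjusted p under 0.05: Pck1 rose by 1.31 on the log2 scale, Cdh1 by 1.75 and Sox9 by 1.31 (edgeR adjusted p = 0.00381, 0.0216 and 0.00455). Sox9 is also among the cholangiocyte markers, so its rise is not particular to periportal hepatocytes. Of 8 cholangiocyte markers tested, 1 rose, Sox9, and 0 fell in Cre against GFP, with a median log2 fold change of -0.17. Cdh1 did not pass without Cre replicates 1 and 5 (adjusted p = 0.122), and with the clock score described next neither Cdh1 nor Sox9 passed (0.141 and 0.0532). Hsd17b13, a lipid droplet enzyme, had a log2 fold change of -0.57 (adjusted p = 0.054). In Flpo against Cre 2 of the 20 periportal markers rose, Hsd17b13 and Pigr, and 4 fell, Pck1, Cdh1, Sox9 and Sult5a1. Of all genes 7.45% rose and 6.26% fell there, and none of these marker calls held in all 29 settings run. Of 12 stellate cell markers 5 fell in Cre against GFP, the collagen genes Col1a1, Col1a2 and Col3a1 and also Lrat and Lum, of which the last pair did not pass without Cre replicates 1 and 5. The 12 summed to 218 to 300.05 TPM in Flpo, 114 to 228 in Cre and 203 to 274 in GFP, and their part in the results was not tested.

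A clock score was the mean centred log2 CPM of Arntl, Npas2 and Clock minus that of Nr1d1, Nr1d2, Dbp, Tef and Per3. It stood at 1.96 in both Cre replicates 1 and 5, at 1.89 in Cre replicate 3, 1.33 in replicate 2 and -0.34 in replicate 4. Cre replicates 1 and 5 thus held the highest scores of all libraries, with Cre replicate 3 close to them. They were also the 2 highest for 1 of 16 clock genes, Arntl, and for 4.3% of all genes. Arntl stood at 14.1 and 11.1 CPM in these libraries and next at 7.40 in Cre replicate 2. The score ran from -2.29 to -0.11 over Flpo and -1.14 to 1.14 over GFP. Its part in the results was tested only as a covariate. The score differed between Flpo and Cre, with only Cre replicate 4 inside the Flpo range. It was also built from genes called in Flpo against Cre, among them Arntl, Clock, Dbp and Tef. A call lost with the score in the fit therefore cannot tell the score from the group. With that score in the fit, 0 of 10 genes passed in each comparison, and 1, 0 and 0 had an unadjusted p under 0.05 in Cre against GFP, Flpo against GFP and Flpo against Cre. Over all 13905 genes that fit called 395, 0 and 61, against 1328, 4 and 1906 without the score. So 0 of 10 there says little about these genes, and the same limit holds for other calls lost with the score.

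Setting both libraries aside, which was chosen after seeing the data, edgeR called 0 of 10 genes in Cre against GFP, with 1 at an unadjusted p under 0.05, where 5.87% of all genes passed, and 3 of 10 passed in Flpo against Cre, where 9.47% did. Ass1 was higher in Flpo by 0.54 on the log2 scale (edgeR adjusted p = 0.0394), Asl by 0.60 (0.0407) and Arg1 by 0.49 (0.0321). With all libraries these 3 fitted differences were -0.21, -0.54 and -0.39, none past the threshold, so the direction rests on 2 of the 5 Cre libraries. The 2 libraries were set aside for their values in these very genes, so each adjusted p without them carries that choice.

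**Figure D4:**
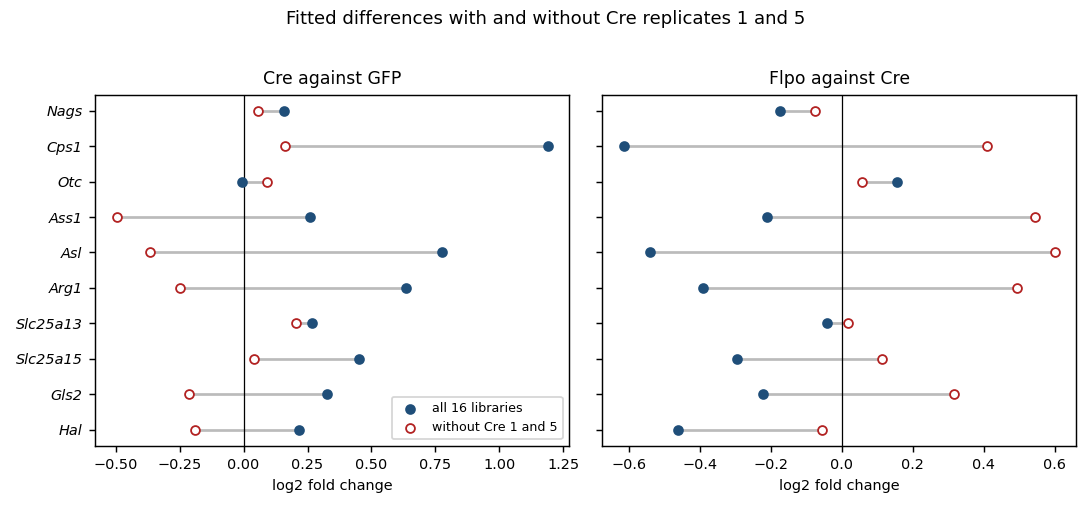
Fitted log2 fold changes of the 10 genes with all libraries and without Cre replicates 1 and 5. In Flpo against Cre, Asl is at -0.54 with all libraries and at 0.60 without the 2.

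Around the cycle, 4 partner genes passed the test in Cre against GFP. Of 20 genes for cycle partners and nitrogen handling, 17 were tested, and in Cre against GFP 2 rose and 2 fell, where 3.97% and 5.58% of all genes rose and fell. Of the 20, Arg2, Slc25a2 and Slc14a1 were under the low-count limit. Car5a, mitochondrial carbonic anhydrase, which supplies bicarbonate to Cps1, was at 37.0, 33.9, 37.0, 52.5 and 24.3 CPM in Cre and 79.2, 70.9, 75.4, 62.2 and 87.3 in GFP. Every Cre library lay below every GFP library, with a log2 fold change of -1.02 (SE 0.15, edgeR adjusted p = 0.000356), and the call held in all 29 settings run, among them that without Cre replicates 1 and 5 (-0.86).

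Slc25a22, a mitochondrial glutamate carrier, was at 436, 354, 308, 283 and 965 CPM in Cre and 168, 186, 177, 194 and 156 in GFP, also without overlap, and rose by 1.41 on the log2 scale (SE 0.30, edgeR adjusted p = 0.00678), and by 0.84 without Cre replicates 1 and 5 (adjusted p = 0.0187). Got1, cytosolic aspartate aminotransferase, which can feed aspartate to Ass1, was at 725, 131, 199, 98.2 and 721 CPM in Cre and 107, 89.1, 77.2, 73.3 and 87.4 in GFP. Its 2 highest libraries were those of Cps1, Cre replicates 1 and 5, but Cre replicates 2 and 3 also lay above every GFP library. The log2 fold change of Got1 was 2.11 (adjusted p = 0.0125), and 0.72 without Cre replicates 1 and 5 (adjusted p = 0.0365). Sirt3, the mitochondrial deacetylase, fell by 0.33 (adjusted p = 0.0328), a call that held in 13 of 29 settings and not without Cre replicates 1 and 5 (adjusted p = 0.0977). With the clock score in the fit, Car5a alone of these 4 passed (adjusted p = 0.00434).

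In Flpo against Cre, 3 of the 17 partners rose and 2 fell, where 7.45% and 6.26% of all genes did. Car5a was at 74.4 to 94.0 CPM in Flpo, median 86.7, all above the Cre libraries (log2 fold change 1.20, edgeR adjusted p = 3.98e-05). Glul was at 1153 to 1493 CPM in Flpo, median 1368, and at 598, 894, 911, 775 and 1040.2 in Cre, without overlap, and rose by 0.68 (adjusted p = 0.00137). Gpt, alanine aminotransferase, rose by 0.61 (adjusted p = 0.0132), and Slc25a22 and Got1 fell by 1.59 and 1.80 (adjusted p = 0.00139 and 0.0143). Without Cre replicates 1 and 5 Slc25a22 fell by 1.02 (adjusted p = 0.00311). Got1 did not pass without them (-0.41, adjusted p = 0.185). With the clock score in the fit 0 of these 5 passed, where 61 of 13905 genes did. The smallest adjusted p of the 5 was 0.0741, for Car5a. In Flpo against GFP 0 of 17 passed with edgeR or in any of the 31 settings run, DESeq2 and limma-voom included, and 2 had an unadjusted p under 0.05.

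**Figure D5:**
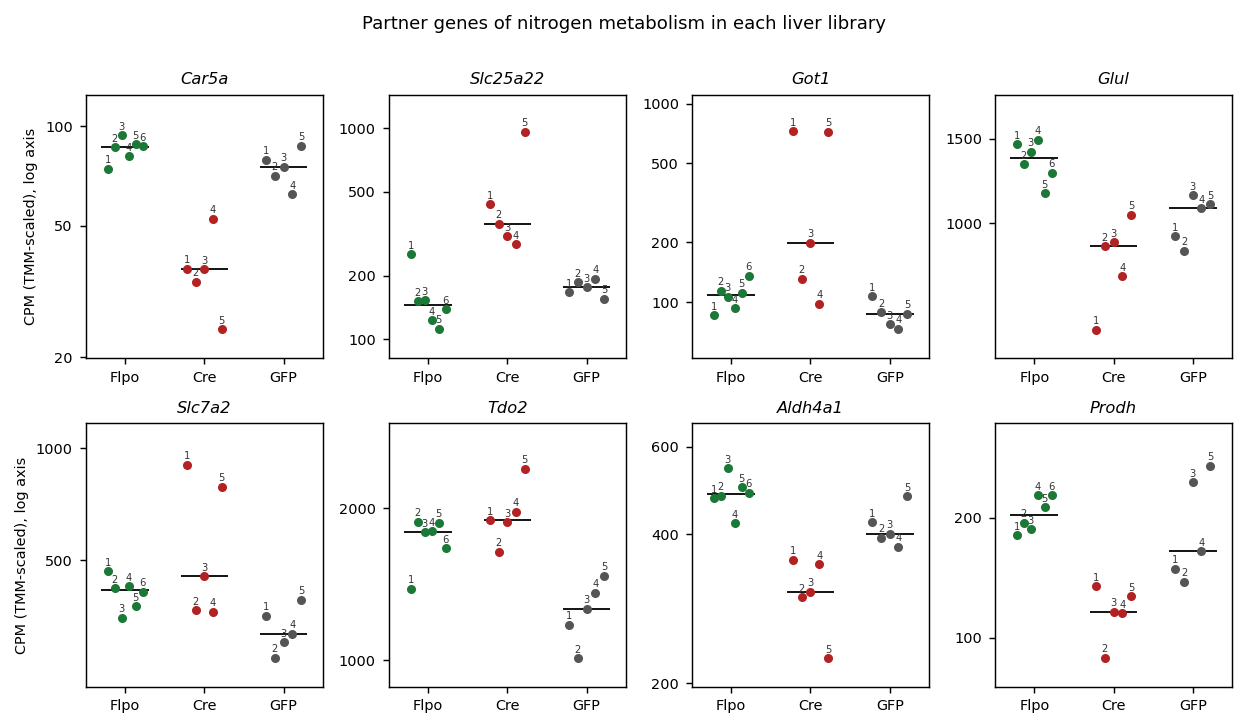
CPM of partner genes in each library on a log axis, Flpo, Cre and GFP side by side. Car5a is below every GFP library in all 5 Cre libraries (24.3 to 52.5 against 62.2 to 87.3), while Got1 is at 725 and 721 in Cre replicates 1 and 5 and at most 199 elsewhere.

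Among 21 genes of histidine, proline, serine and aromatic amino acid breakdown, 3 rose and 3 fell in Cre against GFP, where 3.97% and 5.58% of all genes did, and 3 rose and 3 fell in Flpo against Cre, where 7.45% and 6.26% did. Tdo2, which opens tryptophan breakdown, rose by 0.64 on the log2 scale (edgeR adjusted p = 0.0028), and every Cre library lay above every GFP library. Prodh and Aldh4a1, consecutive enzymes of proline breakdown, fell by 0.73 and 0.43 (adjusted p = 0.0104 and 0.0203), and both rose in Flpo against Cre by 0.82 and 0.66 (adjusted p = 0.00264 and 0.000708). With the clock score in the fit Tdo2 passed (adjusted p = 0.00409) and neither proline gene did in either comparison.

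Hgd, of tyrosine breakdown, and Kyat1, a kynurenine aminotransferase, rose in Cre against GFP by 0.46 and 0.54 on the log2 scale (edgeR adjusted p = 0.0345 and 0.0349), and fell in Flpo against Cre by 0.44 and 0.71 (adjusted p = 0.0254 and 0.0036). Haao, of tryptophan breakdown, fell in Cre against GFP by 0.43 (adjusted p = 0.0292). In Flpo against Cre, Uroc1, the enzyme after Hal in histidine breakdown, rose by 0.46 (adjusted p = 0.0262), and Gldc, of glycine cleavage, fell by 0.53 (0.0243). Without Cre replicates 1 and 5, Hgd, Kyat1 and Haao did not pass in Cre against GFP (adjusted p = 0.268, 0.117 and 0.0709), nor did Hgd and Gldc in Flpo against Cre (0.268 and 0.142). With the clock score in the fit none of these 5 genes passed in either comparison. Cre replicates 1 and 5 were the 2 highest libraries for 6 of the 21 genes, among them Sds, which deaminates serine, and Tat, the first enzyme of tyrosine breakdown. Sds and Tat are also among the 7 periportal markers highest in these libraries, so the counts share genes.

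Of 18 amino acid transporters, 2 rose and 0 fell in Cre against GFP, where 3.97% and 5.58% of all genes did: Slc7a2, a carrier of arginine and ornithine, by 0.81 on the log2 scale (edgeR adjusted p = 0.0254) and Slc1a4, a carrier of alanine and serine, by 1.24 (0.0381). Slc7a2 did not pass without the 2 libraries (0.28, adjusted p = 0.21), and the call of Slc1a4 held in 13 of 29 settings. Of the same 18, 0 rose and 2 fell in Flpo against Cre, where 7.45% and 6.26% of all genes did: Slc1a4 by 1.15 and Slc3a2, the heavy chain of several amino acid exchangers, by 0.43 (adjusted p = 0.0326 and 0.0131). With the clock score in the fit, none of these transporter calls passed.

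Of 20 regulators of cycle genes, among them the glucagon receptor gene Gcgr and the transcription factor genes Cebpa and Hnf4a, 0 rose and 1 fell in Cre against GFP, where 3.97% and 5.58% of all genes did. The bile acid receptor gene Nr1h4 fell by 0.35 on the log2 scale (edgeR adjusted p = 0.0334), a call that held in 18 of 29 settings and not without Cre replicates 1 and 5 (0.108). Among the regulators 2 rose and 0 fell in Flpo against Cre, where 7.45% and 6.26% of all genes did: Foxo1, a target of insulin signalling, by 0.73 and Nr1h4 by 0.35 (adjusted p = 0.00989 and 0.0198). These calls held in 27 of 29 settings for Foxo1 and 21 of 29 for Nr1h4. Neither passed without Cre replicates 1 and 5 (0.0592 and 0.0788) or with the clock score in the fit (0.598 and 0.812). In Flpo against GFP, edgeR called 0 genes of the breakdown, transporter and regulator lists, with 3 of each at an unadjusted p under 0.05; limma-voom also called 0, and DESeq2 called 1, in the breakdown list.

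Paralogs of Arg1, Slc25a15 and Slc25a13 were low beside them. Arg2 reached at most 0.491 TPM where Arg1 was at 584 TPM or more, and Slc25a2 at most 0.167 TPM where Slc25a15 was at 65.0 or more. Slc25a12 was at 4.08 to 10.2 TPM, where Slc25a13 was at 87.9 or more. Nags shares 443 exonic bases with the antisense gene Gm11586, at most 6.55 TPM, and Gls2 shares 97 with Spryd4 on the opposite strand, at most 24.9 TPM; whether strand was used in counting is not given in the sources used here, so reads of these pairs may be mixed.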

How the data were processed

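Liver RNA of 16 libraries was read from polyA-enriched paired-end sequencing, per the labels. The authors deposited estimated counts per gene and TPM, abundance scaled for length and library total. Cutadapt, STAR and mm10 are named per the submitters' processing notes, without versions; for the counting program, its annotation and strand setting: not given in the sources used here. Groups and replicate numbers were read from the titles. Not whole were 31.7% of the deposited estimated counts, and all were rounded before testing.

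Counts were fitted with edgeR 4.0.16 in R 4.3.3: filterByExpr with a minimum count of 10, TMM scaling, and 1 robust quasi-likelihood fit over the 16 libraries, with Benjamini-Hochberg adjustment over all 13905 genes and a threshold of 0.05. Alternatives were DESeq2 1.42.0, limma 3.58.1 (voom, and log2 of TPM plus 1 or 0.1), other scaling and filters, only the 2 groups compared, a replicate block, a clock score, and each library left out; leaving out Cre replicates 1 and 5 was added after seeing the data. Scripts were tested on simulated data. CPM values use TMM library sizes. Intervals cover 95%. Same-numbered libraries of different groups correlated between -0.156 and 0.117 in their deviations, so the numbers do not pair them.

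The 10 genes and the other lists were chosen with earlier results of these data known. The 10 genes were all named, with their paralogs except for 1 result not reported here; the rule also took up to 4 called genes per list and comparison by smallest adjusted p, of which those of the nitrogen and amino acid lists are given and those of the marker and clock lists only in part. Other genes named were chosen after their values were seen. Genes alike in profile were to be named for called members only, of which there were 0. Promoter sequences are those of RefSeq in GRCm38.p6, and gene models those of GENCODE for GRCm38.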

Additional observations from a re-analysis of the deposited data

Results flagged for a closer look

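Within-group values were checked for a single library far from the others with Dixon's test, which chance alone sets off in about 1 in 20 groups. It marked 2 of 30 combinations of the 10 genes and groups, and 16 of 165 when Mapk8, Mapk9 and the genes called from the lists, clock genes aside, were added. Both of the first were in Cre replicate 1: Gls2 at 471 CPM and Hal at 592 CPM. Cre replicate 1 also stood out as high for Gldc (252 CPM) and as low for Rhbg (2.11) and Ttr (3972). Cre replicate 5 was high for Slc25a22 (965) and low for Pigr (783). Flpo replicate 1 stood out as high for Slc25a22 (253 CPM), Tbx3 (46.6), Slc1a4 (11.6), Slc22a3 (11.2) and Hbb-bs (278). The remaining marks, all high values, were Sult5a1 in Flpo replicate 2 (8.28 CPM), Cyp2c29 in Cre replicate 4 (474), Kyat1 in GFP replicate 3 (78.5) and Foxo1 in GFP replicate 5 (52.5). Cps1, Asl and Arg1 were not marked in Cre. The test sets the extreme value against its nearest neighbour, so a pair of high libraries can hide each other. For Cps1, Cre replicate 5 at 7495 CPM was set against Cre replicate 1 at 4168.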

How the results depend on the processing

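The count of the 10 genes called in Cre against GFP was 0, was 1 with DESeq2, and ranged from 0 to 3 when each library was left out in turn (3, 1 and 2 without Cre replicate 2, 3 or 4); the cause was not tested. In Flpo against Cre it was 0, and 3 without Cre replicates 1 and 5, where Ass1, Asl and Arg1 turned to 0.54, 0.60 and 0.49. In Flpo against GFP it was 0 in every setting run. With the replicate number as a block, 0 of 10 passed in each comparison; the numbers do not pair the libraries. Over all genes the calls ranged from 395 to 2060 in Cre against GFP, 0 to 72 in Flpo against GFP and 61 to 2696 in Flpo against Cre, the lowest of each outer pair with the clock score in the fit. Scaling by library totals alone moved the median of all genes to -0.14 in Cre against GFP and 0.13 in Flpo against Cre.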
